A study of Mus musculus with 2 samples.

Results

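The genes described here are 9 transcription factors of the epidermis: Trp63, Tfap2a, Tfap2c, Klf4, Klf5, Grhl1, Grhl3, Ovol1 and Zfp750. They were taken by symbol from the 32285 genes of the deposited matrices. Back skin of mice on postnatal day 3 was profiled by single-cell RNA sequencing of transcript 3′ ends. One library is labelled Wildtype and is called the control here, and 1 is labelled miR-200b induced. Dox is given as the treatment of each, so that doxycycline did not distinguish them. Epidermis and dermis, which holds the hair follicles, had been dissociated apart and mixed at 30 parts to 70. The construct behind the induction, its promoter, the cells in which it is active and the number of animals are not given in the sources used here. A single library stood for each group, so nothing could be tested between them, and every interval below covers counting error only.

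p63, the product of Trp63, keeps basal keratinocytes in a proliferative epidermal state and maintains many epidermal enhancers. AP-2α and AP-2γ, encoded by Tfap2a and Tfap2c, act with it in keratinocytes. Cells that leave the basal layer pass through the spinous and granular layers and build the barrier. Klf4 and Zfp750 promote late differentiation, Grhl1 supports desmosomes, Grhl3 is needed for barrier formation, and Ovol1 restrains progenitor growth. Klf5 is expressed in proliferating epithelial cells.

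MicroRNA-200b represses RNAs whose 3′ untranslated region (3′ UTR) pairs with its seed, bases 2 to 8 of the mature strand. Because the induced library is named for this microRNA, its seed and every match in the 9 genes are shown before the levels. The mature sequence is from RefSeq (GRCm38.p6, chr4:156055685-156055706, minus strand), with the seed in capitals. The windows are 30 bases of the annotated 3′ UTR (GENCODE vM21, GRCm38), written as DNA 5′ to 3′, with the 7-base seed match in capitals.
mmu-miR-200b-3p: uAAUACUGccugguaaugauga
Trp63 (chr16:25890857-25890886, plus strand): ccttgggaaagcatgcaaCAGTATTcccct
Tfap2a, nearer the stop codon (chr13:40716609-40716638, minus strand): gataatgacattttttatCAGTATTgtgaa
Tfap2a, nearer the 3′ end (chr13:40715602-40715631, minus strand): gcgtatttttgttcttggCAGTATTtttta
Klf4 (chr4:55528069-55528098, minus strand): ctgccaggagagagagttCAGTATTttttt

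The match CAGTATT was searched on the transcribed strand. It lay 1852 bases after the stop codon in Trp63, whose 3′ UTR has 3064 bases, 495 and 1502 bases after it in Tfap2a (1813 bases), and 45 bases after it in Klf4 (982 bases). No match was found in the 3′ UTR of any annotated coding transcript of Tfap2c, Klf5, Grhl1, Grhl3, Ovol1 or Zfp750. The rest of the transcripts was not searched. None of the 4 matches was followed by an A, the base that extends a match to 8. Of 20869 genes with an annotated 3′ UTR, 2782 (13.3%) held the 7-base match. A match is a stretch of letters and does not show that the RNA is bound. miR-429 and miR-200c share the seed AAUACUG, whereas miR-200a and miR-141 carry AACACUG.

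The libraries held 100409201 and 119705137 unique molecular identifiers (UMIs, 1 per captured RNA molecule) in 9072 and 9114 barcodes, of which 4816 control and 4890 induced cells passed the filters, and 10 barcodes occurred in both. Epithelial cells numbered 3954 and 4100. They were clustered without the 9 genes and named from marker lists only, so each name below means cells like that class. Basal epidermal cells numbered 575 in the control and 1139 in the induced library, spinous cells 102 and 330, granular cells 22 and 138, and outer root sheath cells 729 and 423. The upper follicle held 253 and 149 cells, the companion layer 70 and 88, and the hair matrix 69 and 52. A further 48.3% and 42.9% of the epithelial cells had no class name. Most clusters came from 1 library even after each gene was centred: the basal class was made of clusters E2 and E28 in the control and of E0, E10, E19 and E27 in the induced library, and the spinous class of E33 and of E3. Granular, companion and matrix cells each formed 1 cluster with cells of both libraries, and upper follicle cells a pair of such clusters. Gm13648, the annotated transcript that overlaps the Mir200b locus, stood at 2.23 CPM (UMIs of the gene per 1000000 UMIs of the class) in control and 529.5 CPM in induced epithelial cells. Over the 7 classes of the induced library it ran from 717 CPM in basal to 62.6 CPM in companion cells. The mature microRNA is not captured, and UMIs of Gm13648 cannot be assigned to its own locus or to a construct.

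Of the 9 genes, 6 differed at least 2-fold between basal and spinous cells. Klf4, Grhl1, Grhl3, Ovol1 and Zfp750 stood at least 2-fold higher in spinous than in basal cells in both libraries, and Trp63 at least 2-fold lower. A gene was counted when its ratio, with 5 CPM added to both sides, was at least 1 in size on the log2 scale in both libraries. That is 5 of 9 genes higher, where 4.31% of 8796 genes were, and 1 of 9 lower, where 12.9% were. In granular against basal cells the same 5 genes were higher, against 7.18% of 8467 genes, and Trp63 and Tfap2a were lower, against 26.9%. The median gene itself stood at -0.27 (control) and -0.31 (induced) on this log2 scale in spinous over basal cells, and at -0.55 and -0.61 in granular over basal cells. Relative to the median gene the 5 higher genes and Trp63 stayed past 2-fold in both comparisons, but Tfap2a in granular cells stood at -0.50 and -0.44. The spinous calls of Klf4 and Trp63 were lost under some other cell assignments. When the layers were cut by keratin share, Klf4 was at 0.58 in the control, and Trp63 at -0.70 in the control and -0.79 in the induced library. That cut took shares of 10 to 50% and 50 to 90% as spinous. Of the control cells there, 0 of 165 and 23 of 62 were in the spinous class, and of the induced cells 13 of 219 and 59 of 205. Most spinous cells, 79 and 257, lay above 90% and were left out of it.

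Trp63 (ENSMUSG00000022510, chr16:25683763-25892102, plus strand, mm10 as for the other genes) was at 199 CPM (95% interval 191 to 207) in control and 196 CPM (191 to 201) in induced basal cells. In spinous cells it was at 64.8 CPM (57.9 to 72.4) and 64.9 CPM (60.8 to 69.3), and in granular cells at 23.5 CPM (16.8 to 32.0) and 20.4 CPM (17.3 to 23.8). The p63 transcript was thus lower at each step outward in both libraries, with no overlap of intervals between layers. Spinous cells held 3.06-fold less than basal cells in the control and 3.02-fold less in the induced library, and granular cells 8.45-fold and 9.62-fold less. Within each of these layers the interval of the ratio between the libraries included 0.

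The AP-2 genes differed by less than 2-fold from basal to spinous cells and were lowest in granular cells. Tfap2a (ENSMUSG00000021359, chr13:40715302-40738376, minus strand) was at 88.2 CPM in basal, 87.4 CPM in spinous and 39.9 CPM in granular cells of the control. In the induced library these levels were 64.5, 72.7 and 28.5 CPM. Tfap2c (ENSMUSG00000028640, chr2:172549593-172558622, plus strand) was at 51.7, 63.2 and 28.8 CPM in the control and at 39.7, 50.7 and 25.5 CPM in the induced library. Tfap2c was higher in spinous than in basal cells by 0.29 (0.09 to 0.49) and 0.35 (0.21 to 0.49) on the log2 scale, and Tfap2a by 0.17 (0.06 to 0.28) in the induced library. With each library clustered apart and 5 CPM added the induced value of Tfap2a turned to -0.30. The granular level of Tfap2c was 1.80-fold and 1.55-fold below the basal level, which is -0.75 and -0.55 on the log2 scale with 5 CPM added. When the layers were cut by keratin share, those ratios were -0.04 in each library. There the bin of highest share stood for the granular layer. It held 79 spinous and 18 granular cells in the control and 257 and 132 in the induced library, so it is not a measure of granular cells alone.

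Klf4 (ENSMUSG00000003032, chr4:55527143-55532466, minus strand) had a steeper gradient in the induced library. Control cells held 285 CPM (275 to 294) in the basal, 665 CPM (642 to 688) in the spinous and 1425 CPM (1369 to 1483) in the granular class. Induced cells held 159 CPM (154 to 164), 893 CPM (877 to 909) and 1608 CPM (1580 to 1637). The induced library was thus lower at the basal and higher at the spinous and granular end, and spinous cells were 2.34-fold above basal cells in the control and 5.62-fold above them in the induced library.

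Klf5 (ENSMUSG00000005148, chr14:99298691-99315036, plus strand), of the same family, was lowest in granular cells. Its control levels were 312 CPM in basal, 319 CPM in spinous and 92.8 CPM in granular cells, and its induced levels were 205, 285 and 139.5 CPM. Spinous over basal cells stood at 0.03 (-0.06 to 0.12) in the control and 0.48 (0.42 to 0.53) in the induced library on the log2 scale, and granular cells were below spinous cells by 3.44-fold and 2.05-fold. Granular over basal cells stood at -1.70 and -0.54 with 5 CPM added. Layers cut by keratin share gave -0.07 and 0.13 in their place, with many spinous cells in the highest bin. Trp63, Tfap2a and Klf5 were the 3 genes at least 2-fold lower in granular than in spinous cells in both libraries, against 4.22% of 5445 genes. Relative to the median gene only Trp63 of them was past 2-fold in both.

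Zfp750 and Grhl1, like Grhl3 and Ovol1 below, showed their larger step between basal and spinous cells. Zfp750 (ENSMUSG00000039238, chr11:121510978-121519333, minus strand) was at 4.40 CPM (51 UMIs) in control and 5.91 CPM (174 UMIs) in induced basal cells. Spinous cells held 110.2 and 112 CPM, and granular cells 129 and 141 CPM. The step from basal to spinous cells was 25.03-fold and 18.9-fold, and from spinous to granular cells 1.17-fold and 1.26-fold. With each library clustered apart the control step was 1.94 in place of 3.61 on the log2 scale with 5 CPM added, and the ratio of the libraries in basal cells was -1.42 in place of 0.22. Grhl1 (ENSMUSG00000020656, chr12:24572283-24617391, plus strand) was at 5.18, 112 and 180.4 CPM in the basal, spinous and granular classes of the control and at 16.0, 158 and 217 CPM in those of the induced library.

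Grhl3 and Ovol1 were higher again in the granular layer, and so was Grhl1. From spinous to granular cells Grhl1 rose 1.61-fold in the control and 1.37-fold in the induced library, and Ovol1 1.45-fold and 1.63-fold. Grhl3 (ENSMUSG00000037188, chr4:135541888-135573630, minus strand) was at 3.62, 26.5 and 63.4 CPM in the control and at 4.79, 55.2 and 132 CPM in the induced library. Among the 9 genes it was the 1 at least 2-fold higher in granular than in spinous cells in both libraries, 2.40-fold and 2.39-fold, where 4.37% of genes were. Relative to the median gene Klf4 passed as well. Ovol1 (ENSMUSG00000024922, chr19:5549136-5560646, minus strand), a zinc-finger repressor, was at 17.0, 108 and 157 CPM in the control and at 38.5, 143 and 232 CPM in the induced library.

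**Figure D1:**
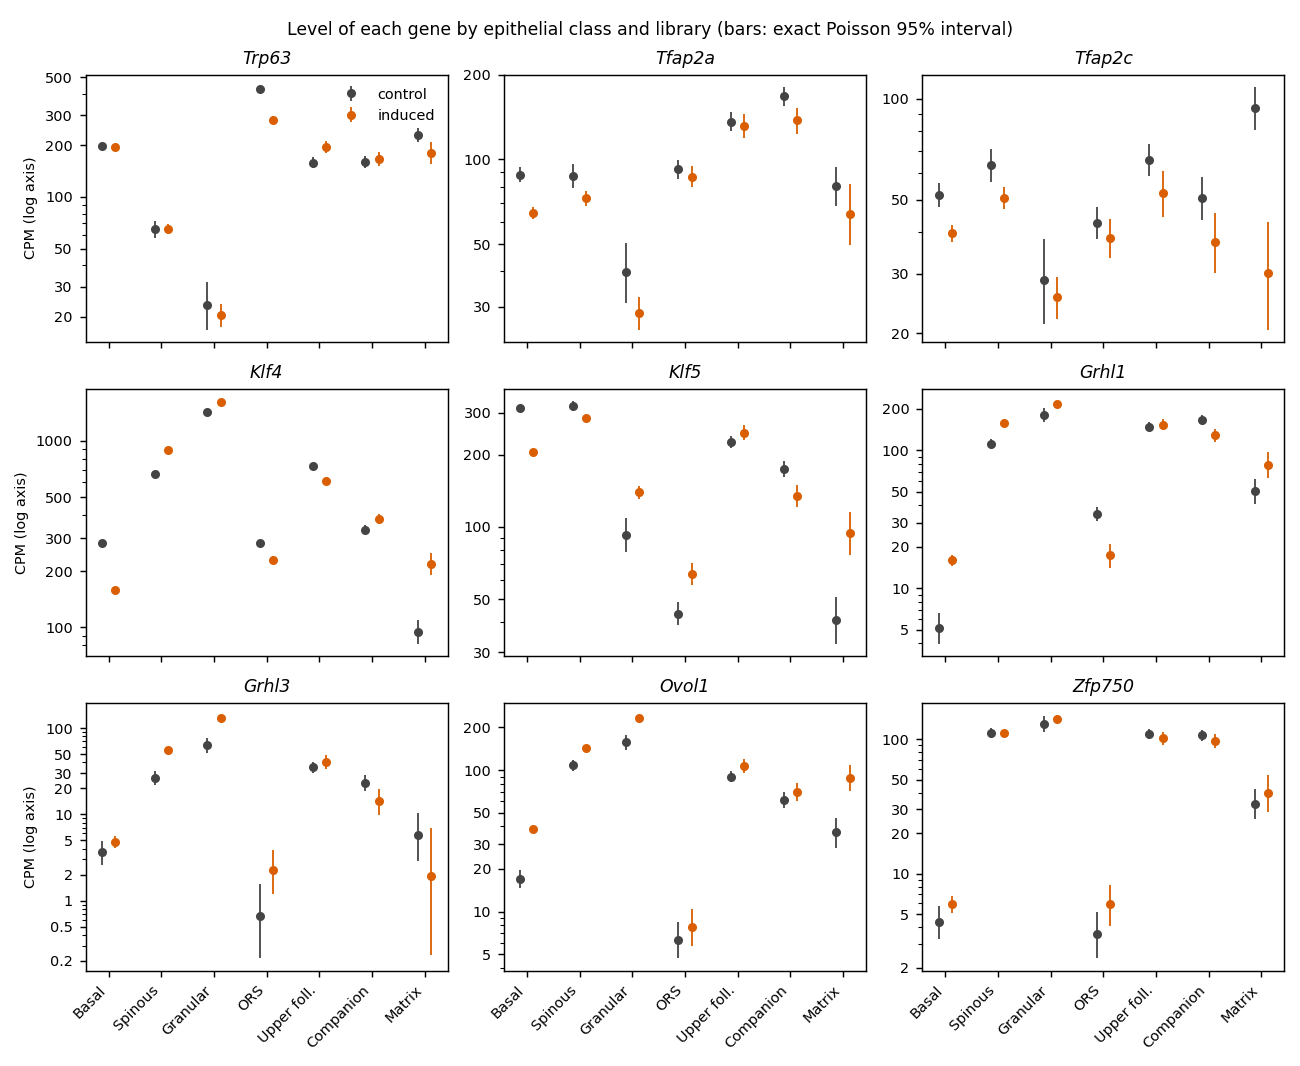
Level of each gene in CPM (log axis) in 7 epithelial classes; dark points are the control library, orange points the induced library, bars are exact Poisson 95% intervals, and ORS is the outer root sheath. Trp63 is lower and Klf4, Grhl1, Grhl3, Ovol1 and Zfp750 are higher from basal to granular cells, while in the outer root sheath Trp63 stands at 425 and 281 CPM and Grhl3, Ovol1 and Zfp750 stay between 0.659 and 7.81 CPM.

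The order was also examined without class borders, along the share of Krt1 and Krt10 among the UMIs of Krt1, Krt10, Krt5 and Krt14, in epithelial cells with at least 20 such UMIs outside the named follicle and sebaceous classes. Krt5 and Krt14 are the keratins of the basal layer, and Krt1 and Krt10 those of the layers above. Bins ran from 0 to 1%, 1 to 10%, 10 to 50%, 50 to 90% and 90 to 100%, and a bin is a range of cells, not a cell type. Trp63 stood at 230.2 CPM in the lowest and 48.6 CPM in the highest bin of the control, and at 196 and 46.2 CPM in the induced library. Its highest level was in the bin from 1 to 10%, at 278 and 216 CPM. That bin held 1540 control and 1469 induced cells, of which 91.6% and 73.4% had no class name, against 36.8% and 25.7% in the lowest bin. Unnamed epithelial cells held 272 and 207 CPM of Trp63, and some of their clusters had Lhx2 or Pparg among the leading genes. Whether follicle cells are among them was not tested.

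Along these bins Grhl3 was higher in the induced library throughout, with intervals that did not overlap in any bin. It stood at 6.35 against 3.01 CPM in the lowest, at 56.6 against 22.9 CPM in the bin from 50 to 90% and at 85.3 against 37.7 CPM in the highest. Klf4 was lower in the induced library in the lowest bin (166 against 268 CPM) and in the next, and higher from 10% on, with 1199 against 920.1 CPM in the highest. Tfap2a was lower in the induced library in each bin, at 67.2 against 99.3 CPM in the lowest and 53.4 against 71.9 CPM in the highest, with overlapping intervals in the bins from 10 to 50% and 50 to 90%. The highest bin held 101 control cells, of which 18 were in granular-like clusters, and 397 induced cells, of which 132 were. The part of this difference in makeup in the values of that bin was not tested.

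**Figure D2:**
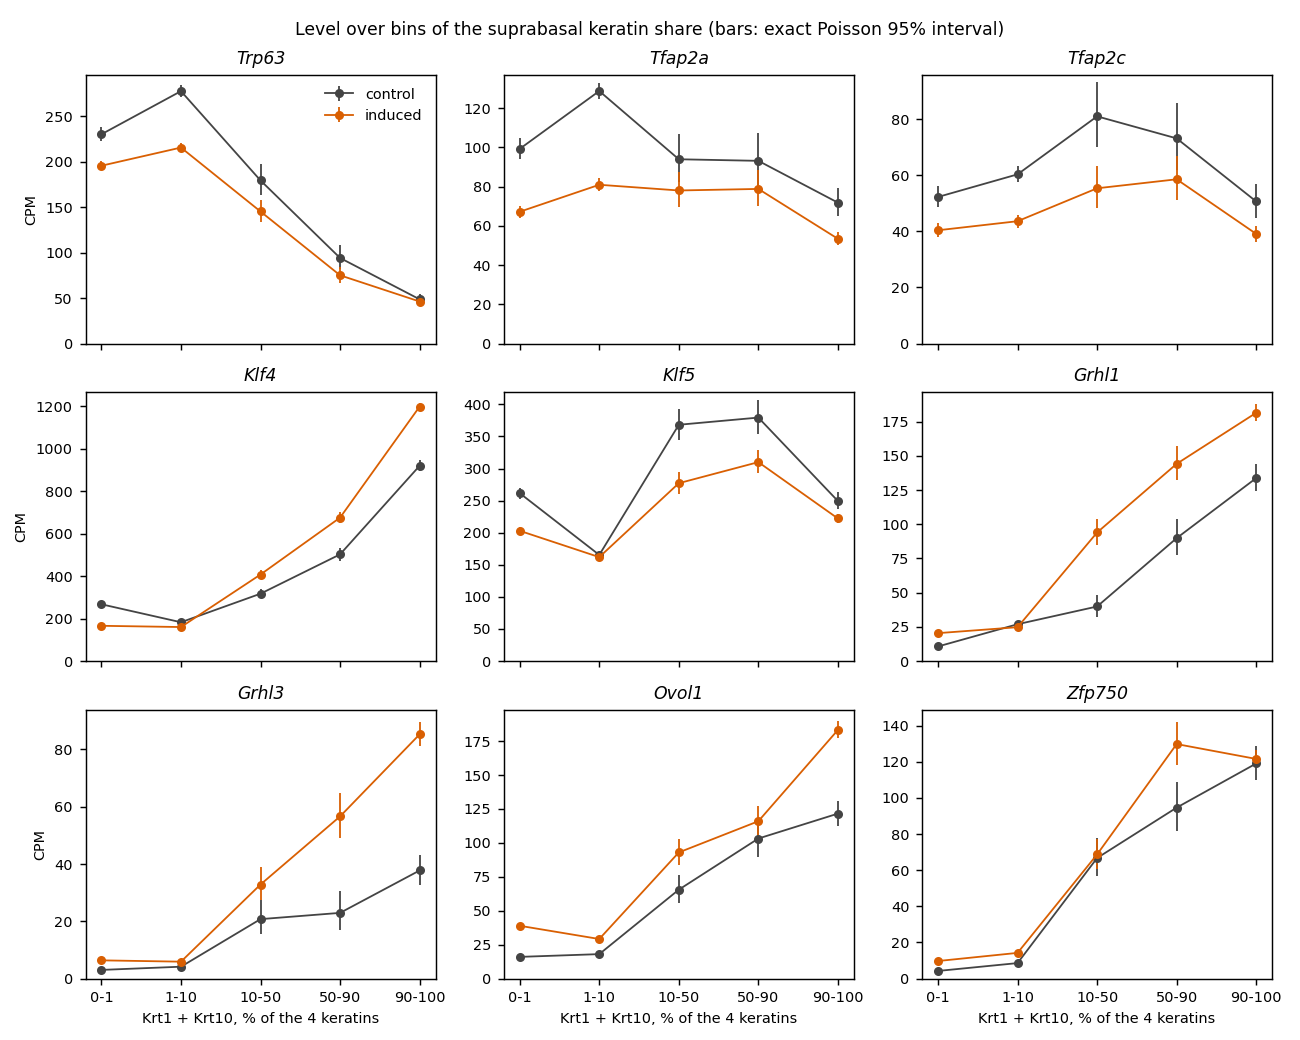
Level of each gene in CPM over 5 bins of the share of Krt1 and Krt10 among the 4 keratins, in epithelial cells outside the named follicle and sebaceous classes; dark points are the control, orange points the induced library, bars are exact Poisson 95% intervals. Grhl3 reaches 85.3 CPM in the induced and 37.7 CPM in the control library in the highest bin, and Tfap2a lies lower in the induced library in all 5 bins.

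Shares of cells with a UMI were computed at a common depth of 2000 UMIs per cell, with fibroblast-like cells as the background. Zfp750 was seen in 0.697% of control and 1.32% of induced basal cells, against 0.575% and 0.403% of fibroblast-like cells, and in 17.8% and 17.9% of spinous cells. Ovol1 was seen in 1.92% of control and 8.53% of induced basal cells, against 0.192% and 0 of 248 fibroblast-like cells, which allows up to 1.21% (3 counts of the total). Grhl1 was seen in 0.348% and 3.52% of basal cells, against 0 of 522, which allows up to 0.575% by the same limit, and 2.02% of fibroblast-like cells. The basal shares of Zfp750 and Grhl1 thus had Clopper-Pearson intervals that overlapped those of the background in the same library, and that of Ovol1 in the induced library did not. At 5000 UMIs per cell the interval of Ovol1 in control basal cells, 7.99% (5.89 to 10.5), also lay apart from that of control fibroblast-like cells, 0.703% (0.145 to 2.04). At full depth the basal shares were 6.09% and 9.31% for Zfp750, 22.3% and 41.1% for Ovol1, and 8.70% and 30.0% for Grhl1. Median depths were 19060.0 and 25596 UMIs in basal and 9509 and 6029 UMIs in fibroblast-like cells.

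**Figure D3:**
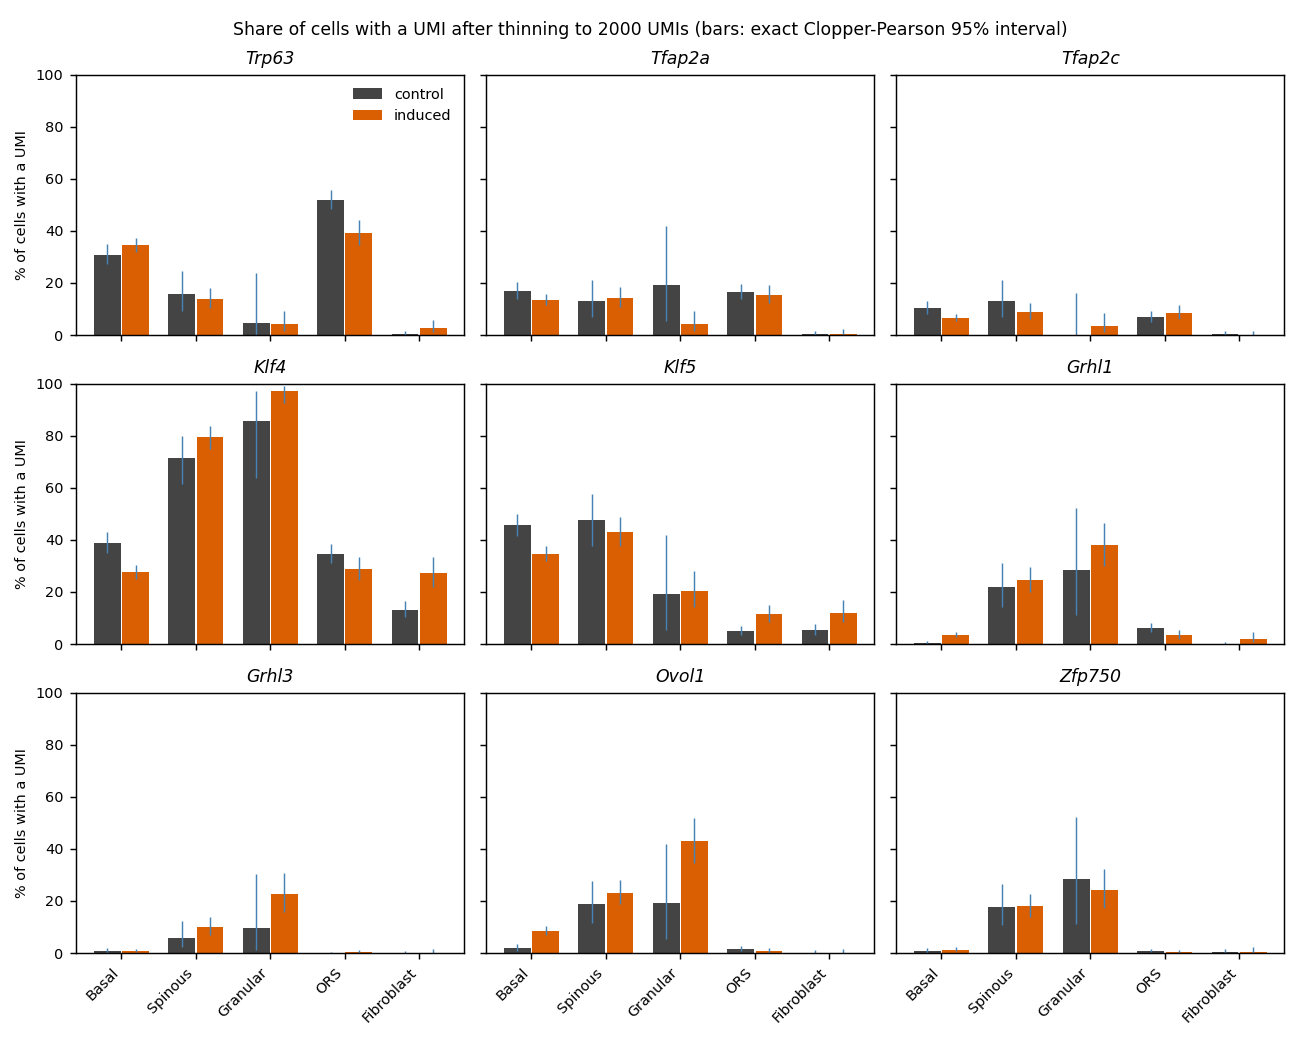
Percent of cells with at least 1 UMI of each gene after thinning to 2000 UMIs per cell, in 4 epithelial classes and in fibroblast-like cells; dark bars are the control, orange bars the induced library, error bars are exact Clopper-Pearson 95% intervals. Klf4 is found in 71.3% of control and 79.6% of induced spinous cells, and also in 13.2% and 27.4% of fibroblast-like cells.

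In the hair follicle the genes were arranged differently. Trp63 was highest of the 7 classes in the outer root sheath, the outer layer of the follicle that is continuous with the basal epidermis, at 425 CPM (411 to 440) in the control and 281 CPM (267 to 295) in the induced library. Klf5 was at 43.5 CPM (38.9 to 48.5) and 63.8 CPM (57.5 to 70.7) there, 7.18-fold and 3.21-fold below the basal epidermis. Of the 7 genes with enough UMIs it was the 1 at least 2-fold lower in both libraries, where 3.27% of 9486 genes were, and none was higher, against 4.89%. Relative to the median gene, which stood at 0.12 and 0.02, Ovol1 was past 2-fold lower too. Grhl1 was 6.70-fold above the basal level in the control and 1.08-fold above it in the induced library.

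The late differentiation genes were present in the upper follicle and in the companion layer, the sheet between outer and inner root sheath. Grhl1 was at 149 and 153 CPM in the upper follicle and at 165 and 129 CPM in the companion layer. Zfp750 was at 109 and 102 CPM, and at 106 and 96.9 CPM. Trp63 was higher in these classes than in spinous cells, at 159 and 196 CPM in the upper follicle and 161 and 166 CPM in the companion layer. Tfap2a was highest of the 7 classes in the companion layer, at 167 CPM (154 to 181) and 137 CPM (123 to 153), with the upper follicle next at 136 CPM (126 to 147) and 131 CPM (119 to 145). In the induced library these neighbours did not differ beyond their intervals. The 214 sebaceous cells of the control held Grhl1 at 137 CPM, Zfp750 at 73.9 CPM and Klf4 at 34.3 CPM, the last below its level in each of the 7 classes. The induced library had 3 such cells and no level is read from them.

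Between the libraries few of the genes were past 2-fold. The call took the ratio of induced over control with 5 CPM added to each, at least 1 in size on the log2 scale, where a gene had 100 UMIs or more in the class when the libraries were summed. Over all epithelial cells 1 of 9 genes passed, Grhl3, against 4.67% of 13383 genes. In basal cells it was 1 of 9, Grhl1, against 5.01% (2.29% higher), and in granular cells 1 of 9, Grhl3, against 9.06%. None of the 9 passed in spinous cells, against 6.98%, in the upper follicle, against 7.65%, or in the companion layer, against 5.88%. None of 6 passed in the outer root sheath, against 5.62%. In the hair matrix 4 of 8 passed, Klf4, Klf5 and Ovol1 higher and Tfap2c lower, against 9.7% of 4176 genes. The median gene stood between -0.09 and 0.02 on the log2 scale, except at -0.13 in the companion layer and -0.16 in the matrix. The trimmed mean of M values gave a log2 factor of -0.16 in the granular class. It is subtracted from the ratios, so ratios of that class were higher under this scaling.

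Grhl3, a factor of barrier formation, was higher in the induced library across the upper epidermis. Its log2 ratio was 1.06 (95% interval 0.79 to 1.34) in spinous and 1.06 (0.77 to 1.36) in granular cells. In basal cells it was 0.40 (-0.10 to 0.94), on 42 control and 141 induced UMIs, and in the companion layer it was lower, at -0.72 (-1.33 to -0.14). With each library clustered apart the basal value was -0.80 and the companion value 0.14, with 5 CPM added. With 5 CPM added the spinous ratio was 0.94, just under the threshold, and the granular ratio 1.00, just past it. The granular call was lost without centring, at 0.59 on 10 control cells, and with doublets kept, at 0.97. The granular comparison rests on 22 control cells, whose summed granular markers stood at 58905 CPM against 15521.5 CPM in the induced library. The 10 fibroblast markers summed to 301 CPM against 30.3 CPM there, with 3 and 2 of them at 0. Spinous cells were unlike between the libraries too, with summed spinous markers at 96776 CPM in the control and 62354.5 CPM in the induced library. Upper follicle markers summed to 1031 and 11408.5 CPM in these spinous cells. The part of these marker differences in the results was not tested.

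Grhl1 in basal cells was at 5.18 CPM (60 UMIs) in the control and 16.0 CPM (471 UMIs) in the induced library, which is 1.63 (1.24 to 2.04) as a log2 ratio. Fibroblast-like cells held 1.36 CPM (7 UMIs) and 7.88 CPM (14 UMIs) of Grhl1, a difference in the same direction, and the part of free RNA in the basal values was not tested. The 4 induced basal clusters lay between 14.7 and 18.3 CPM and the control clusters between 4.77 and 6.0 CPM. Clusters of 1 library are parts of that library and not replicates. The result depended on how cells were assigned: with each library clustered apart the ratio with 5 CPM added was -0.23 in place of 1.05. Ovol1 in basal cells was at 17.0 and 38.5 CPM, a log2 ratio of 1.18 (0.96 to 1.40), or 0.98 with 5 CPM added. Cluster E19, of 201 induced cells led by genes such as Nfkbia, Atf3 and Socs3, held 127 CPM of Ovol1, while the other 3 induced clusters held 22.6 to 29.2 CPM. Without clusters led by stress genes the ratio with 5 CPM added was 0.43.

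Klf4 and Klf5 were lower in induced than in control basal cells, short of 2-fold. The log2 ratio of Klf4 was -0.84 (-0.90 to -0.78) and that of Klf5 was -0.61 (-0.67 to -0.55). In the same cells the 12 immediate early and stress genes, which respond quickly to tissue handling and to signals, summed to 11790.2 CPM in the control and 6534 CPM in the induced library, and 7 of the 12 were past 2-fold lower, against 2.72% of all genes. The basal markers summed to 48559.5 CPM in control and 25960.1 CPM in induced basal cells. The part of either list in these or the other basal differences was not tested. In spinous cells Klf4 was higher, at 0.43 (0.37 to 0.48), with sums of 8730.4 and 7169 CPM for the immediate early and stress list. Basal cells in cycle, with 2 or more UMIs of G2/M genes, held 269.5 CPM of Klf4 in the control and those with none 291 CPM, against 148 and 165 CPM in the induced library, so that the difference was present in both kinds of cell.

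Trp63, Tfap2a and Tfap2c were lower over all epithelial cells of the induced library. The log2 ratio of Trp63 was -0.39 (-0.42 to -0.36), that of Tfap2a -0.59 (-0.64 to -0.55) and that of Tfap2c -0.42 (-0.48 to -0.36). These sums mix classes, and outer root sheath cells made up 18.4% of control and 10.3% of induced epithelial cells. The part of makeup was not tested. Unnamed epithelial cells held 126.5 CPM of Tfap2a in the control and 84.3 CPM in the induced library. In basal cells Trp63 stood at -0.02 (-0.09 to 0.05) and in spinous cells at 0.00 (-0.18 to 0.19). In the outer root sheath it stood at -0.60 (-0.69 to -0.51), and the cells of that class came mainly from different clusters in each library. Inside cluster E13, with 152 control and 76 induced outer root sheath cells, Trp63 was at 277 and 307 CPM, a log2 ratio of 0.15 (-0.09 to 0.39). Tfap2a was lower in the 7 classes, from -0.05 in the upper follicle to -0.49 in granular cells, but relative to the median gene it stood at 0.01 in the outer root sheath. Its interval lay below 0 in basal, spinous, granular and companion cells. Under other assignments of cells these values turned: without centring Tfap2a stood at 1.22 in granular cells, and with each library clustered apart Trp63 stood at -0.98 in spinous cells (both with 5 CPM added).

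Of the 3 genes with a miR-200b seed match shown above, Tfap2a was at or below 0 in each class before that scaling. Trp63 had an interval that included 0 in basal, spinous, granular and companion cells. It was lower in the outer root sheath, at -0.60 (-0.69 to -0.51), and in the matrix, at -0.34 (-0.59 to -0.09), and higher in the upper follicle, at 0.30 (0.15 to 0.46). Klf4 was lower in basal, outer root sheath and upper follicle cells and higher in the other 4 classes. Among the 6 genes without a match Tfap2c was below 0 in the 7 classes too, with intervals that included 0 in granular cells, at -0.17 (-0.63 to 0.31), and in the outer root sheath, at -0.15 (-0.40 to 0.10). Those signs were not kept under every setting: with 5 CPM added, Tfap2c stood at 0.37 in granular cells without centring, and at 0.08 in the outer root sheath as a mean over cells. The upper follicle values turned with each library clustered apart, to -1.80 for Trp63, 2.28 for Klf4 and 0.76 for Tfap2c with 5 CPM added. Of its clusters shared by the libraries, E15 had Klf4 at -0.61 (-0.73 to -0.50) and E21 at 1.13 (0.95 to 1.30). Trp63 was split the opposite way, at 0.43 (0.18 to 0.68) in E15 and -0.39 (-0.60 to -0.18) in E21.

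In the hair matrix, the dividing cells at the base of the follicle, Tfap2c was at 93.7 CPM (80.4 to 108) in the control and 30.1 CPM (20.5 to 42.8) in the induced library, which is -1.64 (-2.24 to -1.08) as a log2 ratio. Klf4 was at 94.7 and 219.6 CPM, Klf5 at 41.0 and 94.3 CPM and Ovol1 at 36.3 and 88.4 CPM. Their log2 ratios were 1.21 (0.924 to 1.504), 1.20 (0.75 to 1.65) and 1.28 (0.82 to 1.76). These values rest on 69 control and 52 induced cells and on 31 induced UMIs of Tfap2c. Relative to the median gene the ratios with 5 CPM added were -1.33 for Tfap2c, 1.33 for Klf4, 1.27 for Klf5 and 1.34 for Ovol1. When each cell counted equally Tfap2c alone passed 2-fold, and with 5 CPM added Klf5 stood at 0.99, Klf4 at 0.90 and Ovol1 at 0.66. The fibroblast markers summed to 610.5 and 1032 CPM in these cells, and their part was not tested.

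**Figure D4:**
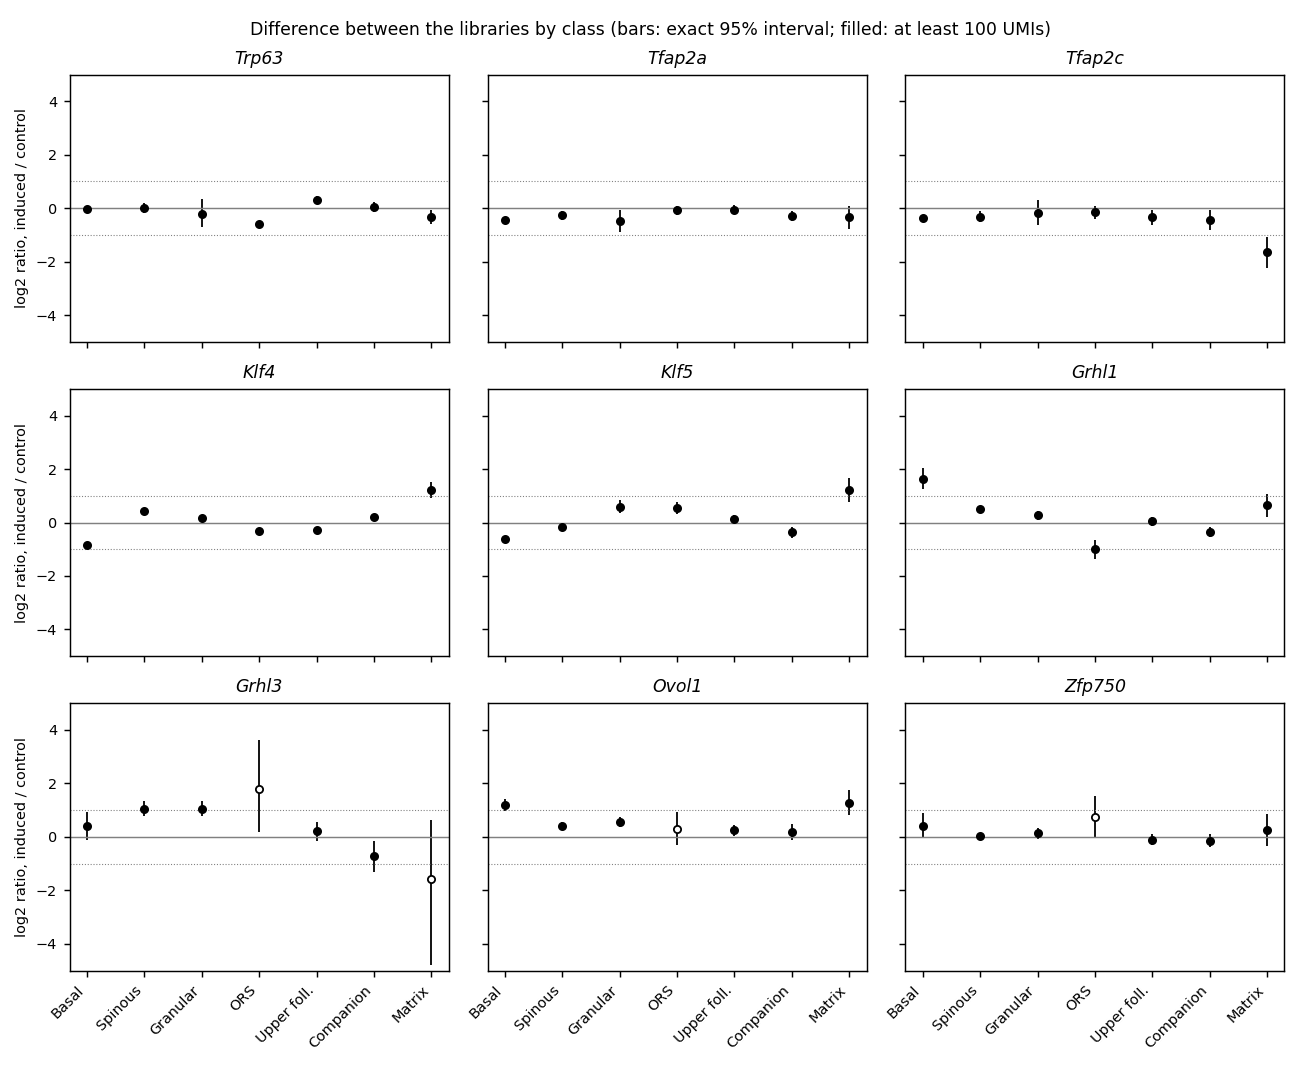
Log2 ratio of induced over control CPM for each gene in 7 epithelial classes; bars are exact 95% intervals, filled points rest on 100 UMIs or more in the libraries together, dotted lines mark 2-fold. Grhl3 lies at 1.06 in spinous and granular cells, Klf4 runs from -0.84 in basal to 1.21 in matrix cells, and Tfap2c lies at -1.64 in the matrix.

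Genes that act with or after these factors were counted with the same call over all epithelial cells. Of 14 barrier genes attributed to Zfp750 and Grhl3, 6 were past 2-fold higher, Tgm1, Sprr2d, Cdsn, Ivl, Cldn4 and Spink5, and 1 was lower, Elovl4, against 1.82% higher and 2.85% lower over all genes. The median log2 ratio of the 14, with 5 CPM added, was 0.97, against -0.05 over all genes. Like the other lists, this one was chosen with earlier results of these data known, which limits the contrast with all genes. Tgm1, the cross-linking enzyme of the cornified envelope, was at 10.6 and 29.1 CPM, and Cldn4, a tight junction protein, at 42.3 and 129 CPM. Sprr2d, a cornified envelope precursor, was at 0.065 CPM (5 UMIs) in the control and 29.3 CPM in the induced library. Elovl4, which elongates very long chain fatty acids, was at 673 and 264 CPM, in libraries with 214 and 3 sebaceous cells. Spinous and granular cells also made up 8.05% and 3.37% of the induced against 2.58% and 0.556% of the control epithelium, and fewer cells of a class cannot be told apart from less RNA per cell in such a sum. Inside the spinous class 5 of the 14 were higher and 1 lower, with a median of 0.74, against 4.08% and 2.89% of all genes. Inside the granular class 4 were higher and 2 lower, with a median of 0.46, against 4.37% and 4.69%. Tgm1, at 199 and 229.5 CPM in granular cells, was not past 2-fold there.

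The other lists held fewer genes past 2-fold, to be read against the 1.82% higher and 2.85% lower over all genes. Of 18 measured relatives of the 9 factors 2 were lower, Klf2, at 36.6 and 11.9 CPM, and Ovol2, at 17.5 and 5.82 CPM, and Klf12, at 1.15 and 2.90 CPM, had the highest ratio with 5 CPM added. In basal cells, where 2.29% of all genes were higher and 2.72% lower, 4 of 15 measured relatives were lower. They were Klf2, Ovol2, Klf3, at 197 and 72.0 CPM, and Klf9, at 67.9 and 24.9 CPM, in the cells whose stress gene sum was lower. Of 30 other epidermal differentiation factors 1 was lower, Cebpa, at 173 and 64.6 CPM, and Ehf had the highest ratio, at 9.61 and 19.9 CPM. In basal cells 3 of 27 were lower (Hopx, Rora and Junb) and 1 higher (Hoxa9). Of 23 measured p63 targets and partners 1 was higher, Hmga2, at 3.99 and 14.9 CPM, and Sirt1 had the lowest ratio, at 17.7 and 8.94 CPM. In basal cells 1 of 23 was higher (Bmp7) and 1 lower (Fras1). None of 9 measured repressor and chromatin partners of Zfp750 and Klf4 passed, with Ctbp2 at 17.8 and 21.7 CPM and Ezh2 at 103 and 54.7 CPM. Of the 12 immediate early and stress genes 1 was lower, Fosb, and of 16 G2/M genes 3 were, Ccnb1, Kif11 and Nusap1. In basal cells 7 of the 12 and 2 of the 16 were lower.

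Some of the 9 genes varied together over the 16 combinations of class and library with at least 20 cells. These points share libraries and depth, so correlations of log2 CPM with 5 CPM added describe a pattern only. Grhl1 and Zfp750 were each other's closest match among 5728 genes, with Pearson's r of 0.95. Grhl3 was most like Tgm1 (0.97), followed by Arf6 (0.96) and Nipal1 (0.94). Trp63 was most like Rbfox2 (0.96), Ptk2 (0.95) and Snai2 (0.94), Klf4 like Acap2, Prom2 and Evpl (0.93 to 0.94), and Klf5 like Sfn, Aqp3 and Clca3a2 (0.86 to 0.90). Tfap2a was most like Hipk1, Rcor1 and Pdrg1 (0.89 to 0.92), Tfap2c like Pum3, Brd7 and Farsa (0.83 to 0.86), and Ovol1 like Zdhhc5, Gipc1 and Tatdn2 (0.90 to 0.92). After each other, Grhl1 was most like Nectin4 and Sort1 and Zfp750 most like Bspry and Nectin4 (0.94 to 0.95). Trp63 ran against Ovol1, with r of -0.73.

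Outside the epithelium, melanocyte-like and fibroblast-like cells were examined. Tfap2a was at 176 CPM (151 to 205) in 79 control and 286 CPM (263 to 311) in 238 induced melanocyte-like cells, where Tfap2c had 0 and 2 UMIs. The AP-2 genes were thus parted in this neural crest lineage. Klf4 was at 75.5 CPM (68.2 to 83.4) in control and 219.6 CPM (198 to 242) in induced fibroblast-like cells, and Klf5 at 27.1 CPM (22.8 to 32.0) and 115 CPM (100.2 to 132). The class joined cluster N1, of 524 control and 203 induced cells, and cluster N28, of 3 and 77 cells, which was led by genes such as Lpl and Fabp4. Within N1 alone Klf4 was at 76.0 and 173 CPM, and Klf5 at 24.7 and 38.7 CPM, a log2 ratio of 0.64 (0.11 to 1.15). Klf5 was at 243.8 CPM in the induced cells of N28. The summed immediate early and stress genes stood at 3005 CPM in control and 10593 CPM in induced fibroblast-like cells and moved with both genes. Their part in these differences was not tested.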

How the data were processed

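UMI counts per gene and barcode were deposited by the authors, made with Cell Ranger 6.0.0 on mm10 per the submitters' processing notes. Barcodes were kept with at least 1000 UMIs, 500 genes and under 15% mitochondrial UMIs. Scrublet's automatic doublet threshold marked 3 and 1 cells and was not usable, so the top 7% of scores were left out of each library. Leiden clusters (scanpy 1.11.5, leidenalg 0.10.2, resolution 1.0) with a summed keratin level over 3000 CPM were called epithelial and reclustered at resolution 2.0 after centring each gene on its library. A class name needed at least 3 markers and 50% of its list raised 1.5-fold over other epithelial cells of the library (20 CPM added) and detected in 25% of cells. These naming thresholds were chosen with the clusters in view.

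Counts were summed per class and library. Intervals are exact Poisson for levels, exact conditional binomial for ratios and Clopper-Pearson for shares, at 95%, and cover counting error only. Cells that fell short of the 2000 UMIs used for thinning were left out of the shares. The ratio steps were tested on simulated data, and in the all-epithelial comparison (13096 genes) 200 of 200 genes changed 4-fold were recovered. The changed genes were among the better expressed ones, and the simulation held no cell assignment and no library effect. It therefore checks the arithmetic of the call and not the reported differences. Alternatives were other clusterings, filters, scalings and pseudocounts. The 9 genes and all lists were chosen with earlier results of these data known. All 9 genes are named, with the 3 genes most like each and the highest and lowest ratio of each list. The other list genes past 2-fold were named after their values were seen. 3′ UTRs are from GENCODE vM21 (GRCm38) and microRNAs from RefSeq. Protein comparison of the paralogs was not made here.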

Additional observations from a re-analysis of the deposited data

Results flagged for a closer look

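In 5 genes the difference between the libraries pointed in opposite directions in different classes, with intervals that excluded 0 on both sides, and whether the classes differ in this was not tested. Trp63 stood at -0.60 (log2, induced over control) in the outer root sheath and 0.30 in the upper follicle. Inside the clusters with cells of both libraries Trp63 was at 0.15 (-0.09 to 0.39) in the outer root sheath, and at 0.43 (0.18 to 0.68) and -0.39 (-0.60 to -0.18) in the 2 upper follicle clusters. With each library clustered apart the upper follicle value was -1.80 with 5 CPM added. Klf4 stood at -0.84 in basal epidermal cells and at 1.21 in the hair matrix. Klf5 stood at -0.61 in basal cells and 1.20 in the matrix. Grhl1 stood at -0.999 in the outer root sheath and 1.63 in basal cells. Grhl3 stood at -0.72 in the companion layer and 1.06 in spinous cells. The matrix values rest on 69 control and 52 induced cells, and inside the outer root sheath cluster with cells of both libraries Grhl1 was at 0.25 (-1.25 to 1.66).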

How the results depend on the processing

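The count of genes higher in granular than in basal cells was 5 under each alternative run. In spinous over basal cells it was 5, and 4 with doublets kept, at resolution 1.0, with the transition clusters E9 and E22 added and with keratin bins, where Klf4 in the control stood at 0.98, 0.92, 0.94 and 0.58 (log2, 5 CPM added). The count of lower genes from basal to spinous cells was 0 in place of 1 with each library clustered apart and with keratin bins, where Trp63 in the control stood at -0.93 and -0.70, and that from basal to granular cells was 1 in place of 2 under the stricter filter, without clusters led by stress genes and with keratin bins. Between the libraries, the number of the 9 genes past 2-fold in basal cells was 2 in place of 1 under the stricter filter, at resolution 1.0, with 1 CPM added, with the mean over cells, and without the replication and mitosis clusters. In spinous cells it was 2 in place of 0 with each library clustered apart and 1 with 1 CPM added. In granular cells it was 2 in place of 1 without centring, where Klf5 and Tfap2a passed and Grhl3 did not, and 0 with doublets kept. The outer root sheath had 1 in place of 0 without centring, the upper follicle 4 without centring and 5 with each library clustered apart in place of 0, all epithelial cells 0 and the matrix 1 (of 4) with the mean over cells. Grhl1 in basal cells reversed to -0.23 with each library clustered apart, and the cause was not tested. Of the ratios between libraries, 587 of 729 stayed within the counting interval of the reported value, and 141 moved beyond it. Leaving out replication and mitosis clusters, adding clusters E9 and E22 to the spinous class and taking cluster E13 alone were chosen after seeing the data. With each library clustered apart there was no granular value, and without centring no matrix value. No paired analysis was possible because each group had 1 library. Class assignment and depth, down to 22 control granular cells, limit these comparisons.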
